A study of Mus musculus with 2 samples.

Results

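Secreted defence genes of alveolar type 2 (AT2) cells, 8 of the 27998 genes in the count tables, were followed by symbol: Lyz1, Lyz2, Cxcl15, Chil1, Lcn2, Lrg1, Scgb1a1 and Hp. Each symbol matched 1 row. They were measured by single-cell RNA sequencing of lung cells from male mice, sorted for EpCAM and against Sca-1, CD24, CD45, CD34 and CD31. One library came from mice labelled WT and 1 from mice labelled IP-/- (IPKO), the receptor for prostaglandin I2 being encoded by Ptgir. The labels give no age, strain, injury, treatment, number of animals or nature of the deleted part, and nothing that both groups share beyond tissue, sort and sex. With 1 library per label there was no replicate check and no test between them; intervals below are 95% and cover counting error only.

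AT2 cells line the alveolus, make surfactant and secrete proteins that act on inhaled microbes. Lyz1 and Lyz2 encode lysozymes, enzymes that cut bacterial cell walls; in the mouse, Lyz2 is known from macrophages and AT2 cells and Lyz1 from Paneth cells of the gut. Cxcl15 encodes lungkine, a lung chemokine for neutrophils. Lcn2 encodes lipocalin 2, which binds bacterial iron carriers, and Hp encodes haptoglobin, which binds free haemoglobin. Lrg1 encodes a leucine-rich secreted glycoprotein of the acute phase, Chil1 a chitinase-like protein without enzyme activity, and Scgb1a1 the main secretoglobin of airway club cells.

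The library labelled WT held 8924 barcodes and 127287281 unique molecular identifiers (UMIs, counted molecules), and the library labelled IPKO 10014 barcodes and 137471506 UMIs. Cells with at least 500 genes and at most 20% mitochondrial UMIs were kept, 6745 and 8072. The libraries shared 79 barcodes, 16 of them among kept cells. AT2 cells were kept cells with Sftpc, the surfactant protein C gene, at 10% of UMIs or more: 6422 labelled WT (median 18307 UMIs) and 7465 labelled IPKO (17061). All 12 AT2 markers, Sftpc among them, were detected in them in both libraries. Detection does not set AT2 cells apart, since all 12 were also detected in the lymphocyte-marked and endothelial-marked cells named below. The median marker stood at 2018 and 1830 UMIs per 1000000 in AT2 cells, against 74.8 and 59.4 in lymphocyte-marked cells. Keratin-high cells were the highest 5% by the summed share of Krt8, Krt18, Krt19 and Krt7, 328 and 392 cells, of which 301 and 354 were also AT2 cells; this is a range of a score and not a cell type. Cells with under 10% Sftpc and at least 3 markers of 1 non-epithelial type numbered 118 and 264, among them 17 and 116 lymphocyte-marked, 14 and 53 macrophage-marked, 6 and 11 neutrophil-marked and 63 and 64 endothelial-marked cells. The targeted gene went against the labels: AT2 cells of the library labelled WT had 0 Ptgir UMIs, and those of the library labelled IPKO had 314, or 2.40 CPM (UMIs of a gene per 1000000 UMIs of its cells). A tag at the 3′ end says nothing about a part deleted elsewhere in the gene. Whether that or exchanged labels lie behind these counts was not tested. Every direction between the libraries below is therefore one between labels.

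All positions are on GRCm38, from the GENCODE vM21 annotation. Lyz2 (chromosome 10, 117277331 to 117282321) and Lyz1 (117287797 to 117292868) are neighbours on the minus strand with 5475 bases between them. Cxcl15 lies on chromosome 5 (90794534 to 90803067, plus strand, over the small gene Gm24322 on the other strand), Chil1 on chromosome 1 (134182176 to 134190181, plus) and Lcn2 on chromosome 2 (32384633 to 32388252, minus). Lrg1 is on chromosome 17 (56119678 to 56122001, minus), Scgb1a1 on chromosome 19 (9083636 to 9087958, minus) and Hp on chromosome 8 (109575128 to 109579172, minus). No annotated gene overlapped the other 7 members.

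The first 200 of the 250 bases upstream of the RefSeq start of the 2 lysozyme genes are shown. They were picked because these neighbours were negatively correlated across AT2 cells (r of -0.31 and -0.32). The bases are from the RefSeq promoter table of GRCm38.p6, written 5′ to 3′ on the minus strand. Capitals mark bases with no match in the other gene.
Lyz1, chr10:117292919-117293118: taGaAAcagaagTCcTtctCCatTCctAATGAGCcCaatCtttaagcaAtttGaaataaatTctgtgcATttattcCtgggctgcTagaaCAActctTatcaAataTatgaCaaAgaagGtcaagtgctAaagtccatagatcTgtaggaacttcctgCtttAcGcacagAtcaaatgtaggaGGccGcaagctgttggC
Lyz2, chr10:117282323-117282522: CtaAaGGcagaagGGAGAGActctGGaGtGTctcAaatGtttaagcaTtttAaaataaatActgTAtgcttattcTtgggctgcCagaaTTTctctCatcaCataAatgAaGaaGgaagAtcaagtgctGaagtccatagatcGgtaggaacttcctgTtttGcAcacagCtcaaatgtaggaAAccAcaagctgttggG
In a global alignment 155 of the 200 bases (77.5%) matched, 70 of the first 100 and 85 of the last 100. The transcripts are alike too. Of 411 windows of 90 bases in the last 500 bases of Lyz1, 15 occurred whole in Lyz2 and 187 had 3 or fewer mismatches to it, so the split of reads between the genes is uncertain for part of the 3′ end. In macrophage-marked cells, which carried abundant Lyz2, Lyz1 had 7 UMIs beside 2262 of Lyz2 in the WT-labelled library (0.309% of both, exact interval 0.124% to 0.635%) and 19 beside 5327 in the IPKO-labelled one (0.355%, 0.214% to 0.554%).

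Lcn2, Lrg1 and Chil1 were correlated across AT2 cells. The stretch before the RefSeq start of Chil1 is shown because its level differed most between the labels, with capitals for matches to the motifs below.
Chil1, plus strand, chr1:134181906-134182155: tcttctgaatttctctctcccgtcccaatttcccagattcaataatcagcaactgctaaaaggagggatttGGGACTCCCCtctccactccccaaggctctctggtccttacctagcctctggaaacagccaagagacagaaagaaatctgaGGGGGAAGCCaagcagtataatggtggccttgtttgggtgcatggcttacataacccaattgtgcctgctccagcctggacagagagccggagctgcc
Both strands of the 250 bases before the RefSeq start were searched in 32851 promoters. RefSeq and GENCODE starts differ: of the 250 bases, all 250 lie inside the GENCODE gene for Lcn2, 55 for Lrg1 and 49 for Lyz2, and 0 for Lyz1, Chil1 and Cxcl15. TTGCNNAA, a C/EBP-type motif, occurred in 9.56% of all promoters and once each in Lcn2 and Lyz1. An NF-kB-type motif of 3 G, any 5 bases and 2 C occurred in 45.8% and was found 2 times in Chil1 and once each in Lcn2 and Lrg1. TTCNNNGAA, a STAT-type motif, occurred in 7.02% and in none of the 6 members in the table. A match is a description of the letters and not of binding. Scgb1a1 and Hp had no entry in the table.

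In AT2 cells Lyz2 was the highest member and Lrg1 the lowest, in both libraries. Because each transcript gives 1 tag, CPM were not scaled by length. The Lyz2 level was 30138 CPM (30107 to 30168) in the WT-labelled and 34607 CPM (34575 to 34639) in the IPKO-labelled library. Cxcl15 followed at 7770 and 6238 CPM. Lyz1 stood at 2555 and 2541 CPM. Chil1 had 2504 CPM labelled WT, close to Lyz1, but 510 labelled IPKO, below Hp. Scgb1a1 had 1199 and 363 CPM. Hp had 965 and 713 CPM. Lcn2 had 641 and 516 CPM, and Lrg1 271 and 226. Sftpc, by which the cells were chosen, took 211933 and 209853 CPM.

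**Figure D1:**
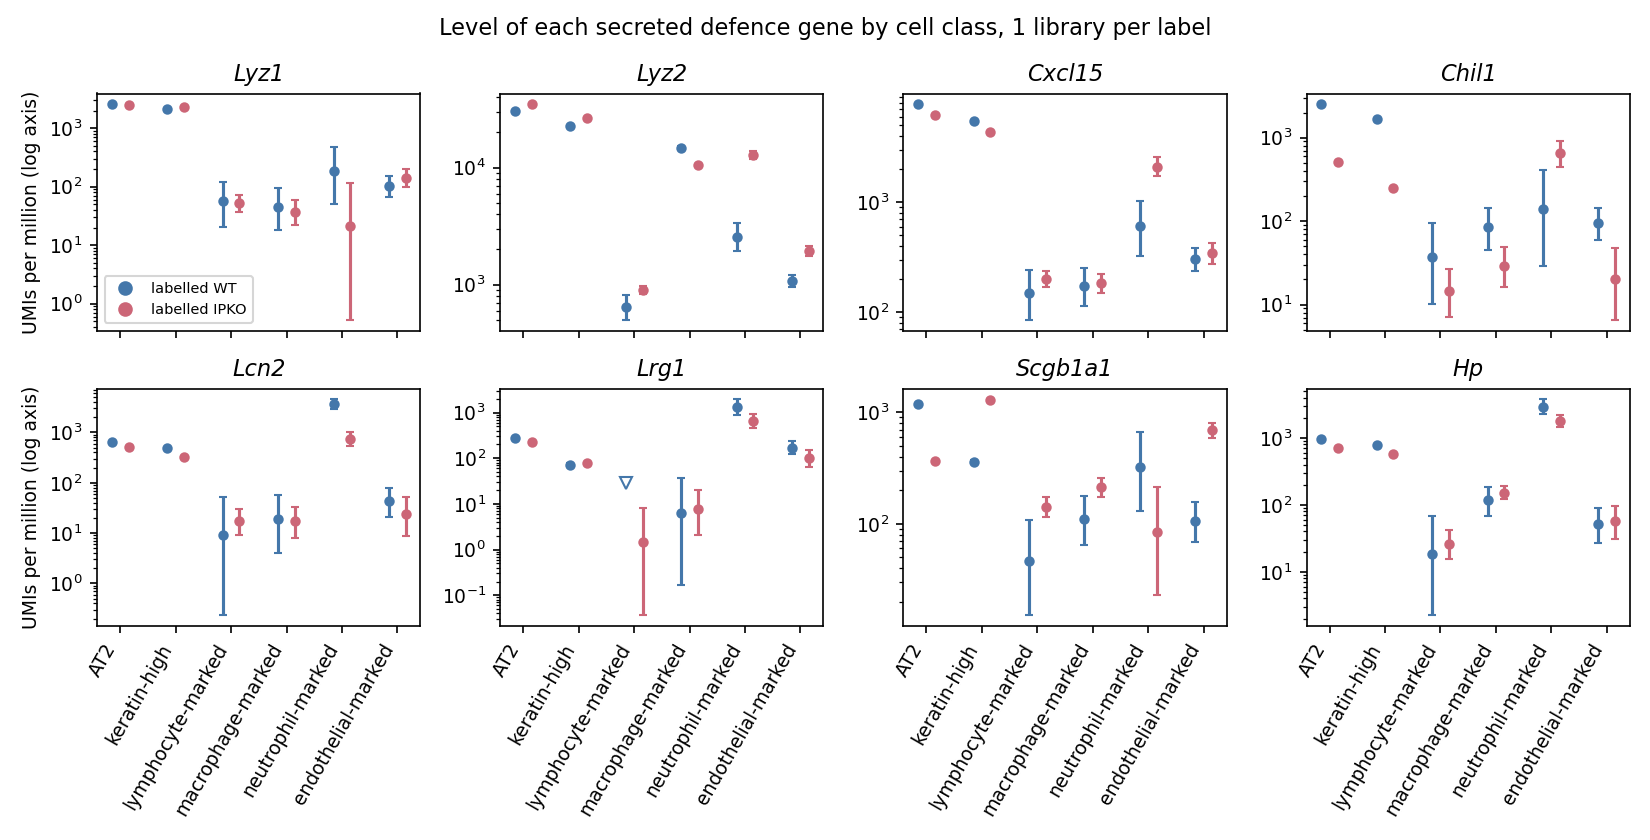
Level of each gene in CPM (log axis) in 6 cell classes; each point is the summed count of 1 library, blue for the label WT and red for IPKO, and bars are exact 95% Poisson intervals; an open triangle is the floor of 3 counts where no UMI was found. Lyz2 is also high in macrophage-marked cells, and of the 6 classes plotted, Lcn2, Lrg1 and Hp are highest in neutrophil-marked cells.

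Lymphocyte-marked cells should lack all 8 genes, and their UMIs give a measure of free RNA. In them 7 of the 8 members stood below 10% of their AT2 level in both libraries: Lyz2 at 645 and 900 CPM, Cxcl15 at 150 and 202, Lyz1 at 56.1 and 52.8, Chil1 at 37.4 and 14.7, Hp at 18.7 and 26.4, and Lcn2 at 9.35 and 17.6. Lrg1 had 0 UMIs labelled WT, where 3 counts would be 28.1 CPM, and 1 labelled IPKO. The exception was Scgb1a1, at 46.8 CPM labelled WT (15.2 to 109) but 142 labelled IPKO (115 to 173), which is 39.1% of its AT2 level there. Relative to Sftpc, lymphocyte-marked cells labelled IPKO had 18.1 times as much Scgb1a1 as AT2 cells.

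Outside the epithelium, Lcn2, Lrg1 and Hp were above their AT2 level of the same library in neutrophil-marked cells, in both libraries. Lyz2 in macrophage-marked cells was abundant but below its AT2 level, at 48.6% and 30.1% of it. Macrophage-marked cells had Lyz2 at 14633 and 10426 CPM, against Lyz1 at 45.3 and 37.2 CPM, at or below the lymphocyte-marked cells. Their Hp, 116 CPM (69.0 to 184) and 153 CPM (121 to 191), lay above the 18.7 and 26.4 CPM of lymphocyte-marked cells, with intervals that did not overlap. Neutrophil-marked cells had Lcn2 at 3633 and 752 CPM, Lrg1 at 1351 and 668 CPM and Hp at 2934 and 1796 CPM, all above AT2 cells of the same library. Those levels rest on 6 and 11 cells. The 11 labelled IPKO carried Sftpc at 33992 CPM against 6520 labelled WT, but 1 cell held 1432 of the 1628 UMIs, and without it Sftpc stood at 5936 CPM, Lcn2 at 787, Lrg1 at 636 and Hp at 2423. Chil1 in neutrophil-marked cells was at 140 CPM (3 UMIs) labelled WT and 647 CPM labelled IPKO, or 242 CPM without that cell. Endothelial-marked cells had Lrg1 at 171 CPM (122 to 233) and 101 CPM (65.5 to 149). Their Scgb1a1 was at 107 CPM labelled WT but 689 CPM labelled IPKO, 189.5% of its AT2 level there. Those 170 UMIs were uneven, with a median of 0 per cell. Macrophage-marked cells had Scgb1a1 at 110 and 213 CPM. Club-marked cells, 6 and 7, had Scgb1a1 at 554336 and 453800 CPM and Hp at 4025 and 4442 CPM. Chil3, a relative of Chil1 known from macrophages, stood at 15506 and 3124 CPM in macrophage-marked cells and at 0.616 and 3.35 CPM in AT2 cells.

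Between the labels, Chil1 and Scgb1a1 were lower in the AT2 cells labelled IPKO, and the other 6 members differed by less than 1.5-fold. Chil1 was 4.91-fold lower (log2 ratio -2.30, interval -2.31 to -2.28), and 5 of 8500 genes of at least 5 CPM had a lower ratio. Scgb1a1 was 3.30-fold lower (-1.72, -1.74 to -1.71), with 10 genes lower. The log2 ratios of Hp, Cxcl15, Lcn2 and Lrg1 were -0.44, -0.32, -0.31 and -0.26, that of Lyz1 was -0.01 and that of Lyz2 0.20, while Sftpc stood at -0.01. Without the AT2 cells that carried 2 or more markers of another type, Lyz1 was at 0.38. Those left out were most AT2 cells, 5022 of 6422 labelled WT and 5900 of 7465 labelled IPKO. Over all 8500 genes the median was 0.06. By the 1.5-fold rule, 0 of the 8 members were higher, against 1.69% of all genes, and 2 were lower, against 1.51% (3.2% of genes either way; with genes from 1 CPM, 2.72% higher, 1.92% lower and 4.64% either way). Both had been seen to be low in these data before the genes were chosen, so the share of members is not support for anything about the set.

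Among keratin-high cells, most of which (301 of 328 and 354 of 392) were AT2 cells, Chil1 had 1660 CPM labelled WT and 246 labelled IPKO (log2 ratio -2.75). Cells with low Sftpc and no name had 1157 and 311 CPM. In endothelial-marked cells Chil1 was 94.0 CPM (58.9 to 142) and 20.3 (6.58 to 47.3). Relative to Sftpc this was 1.57 and 0.958 times the level of AT2 cells. Lymphocyte-marked cells had 37.4 and 14.7 CPM, or 0.990 and 1.33 times by the same measure. The source of these UMIs was not tested. Club-marked cells had 330 and 347 CPM.

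**Figure D2:**
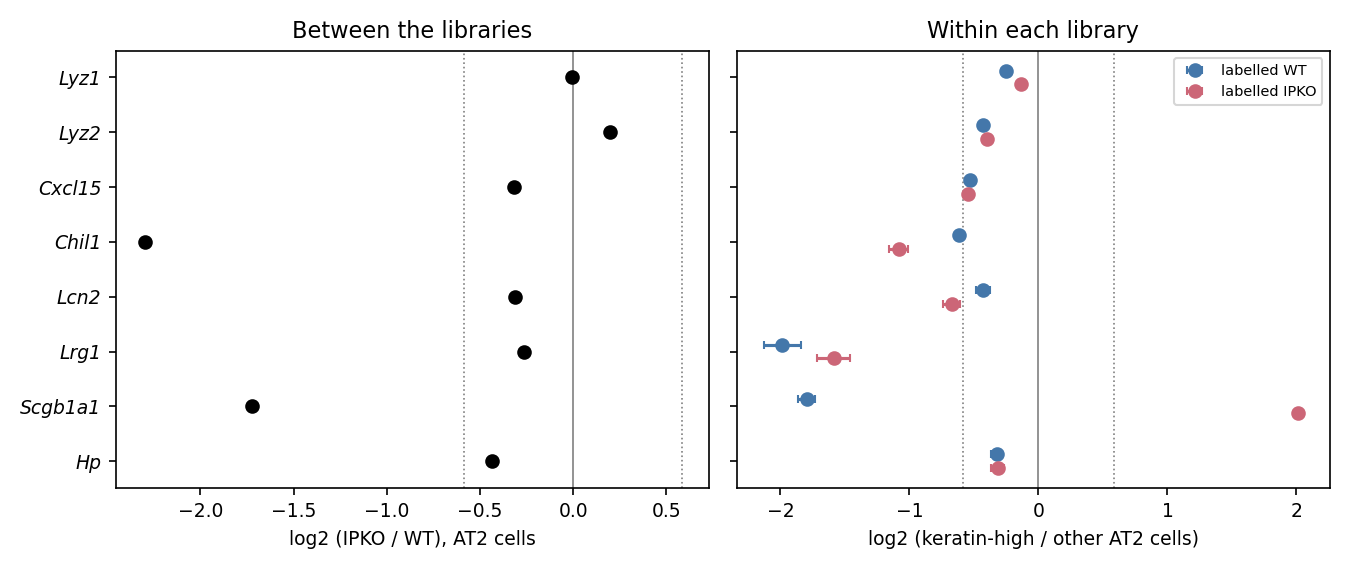
Log2 ratios of the 8 genes between the libraries in AT2 cells (left) and between keratin-high and other AT2 cells within each library (right); points are ratios of summed counts, bars exact 95% counting intervals (mostly narrower than the points), and dotted lines the 1.5-fold limits. Chil1 and Scgb1a1 lie past the lower limit on the left; on the right Scgb1a1 is at -1.80 labelled WT and 2.01 labelled IPKO, the latter resting on 1 cell.

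Chil1 also differed between the libraries in its spread over cells. With every cell thinned to 5000 UMIs (6392 and 7380 AT2 cells deep enough), Chil1 had a median of 12 UMIs labelled WT, with 90% of cells between 4 and 22, and 0 UMIs in 0.438% of cells. Labelled IPKO the median was 1 UMI, the 95th percentile was 9, and 39.0% of cells had 0, where a Poisson count of that mean would give 9.10%. Excess variance, the variance beyond counting divided by the squared mean, was 0.127 labelled WT and 1.38 labelled IPKO, above 47.7% and 98.4% of genes of at least 20 CPM.

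Of the 8 members, 4 were among the 5% of genes with the most excess variance in both libraries: Lyz1 (7.14 and 7.41), Lrg1 (3.77 and 3.82), Scgb1a1 (3.06 and 109) and Lcn2 (0.832 and 0.943). Among the cells behind the value of 109 is 1 that held 6943 of the 47619 Scgb1a1 UMIs, described below. Hp (0.298 and 0.295), Lyz2 (0.174 and 0.154) and Cxcl15 (0.151 and 0.162) were more even, and Cxcl15 was found in every cell at this depth. The 10% of cells with the most Lrg1 held 61.3% and 61.8% of its UMIs, against 18.3% and 18.9% for Cxcl15.

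**Figure D3:**
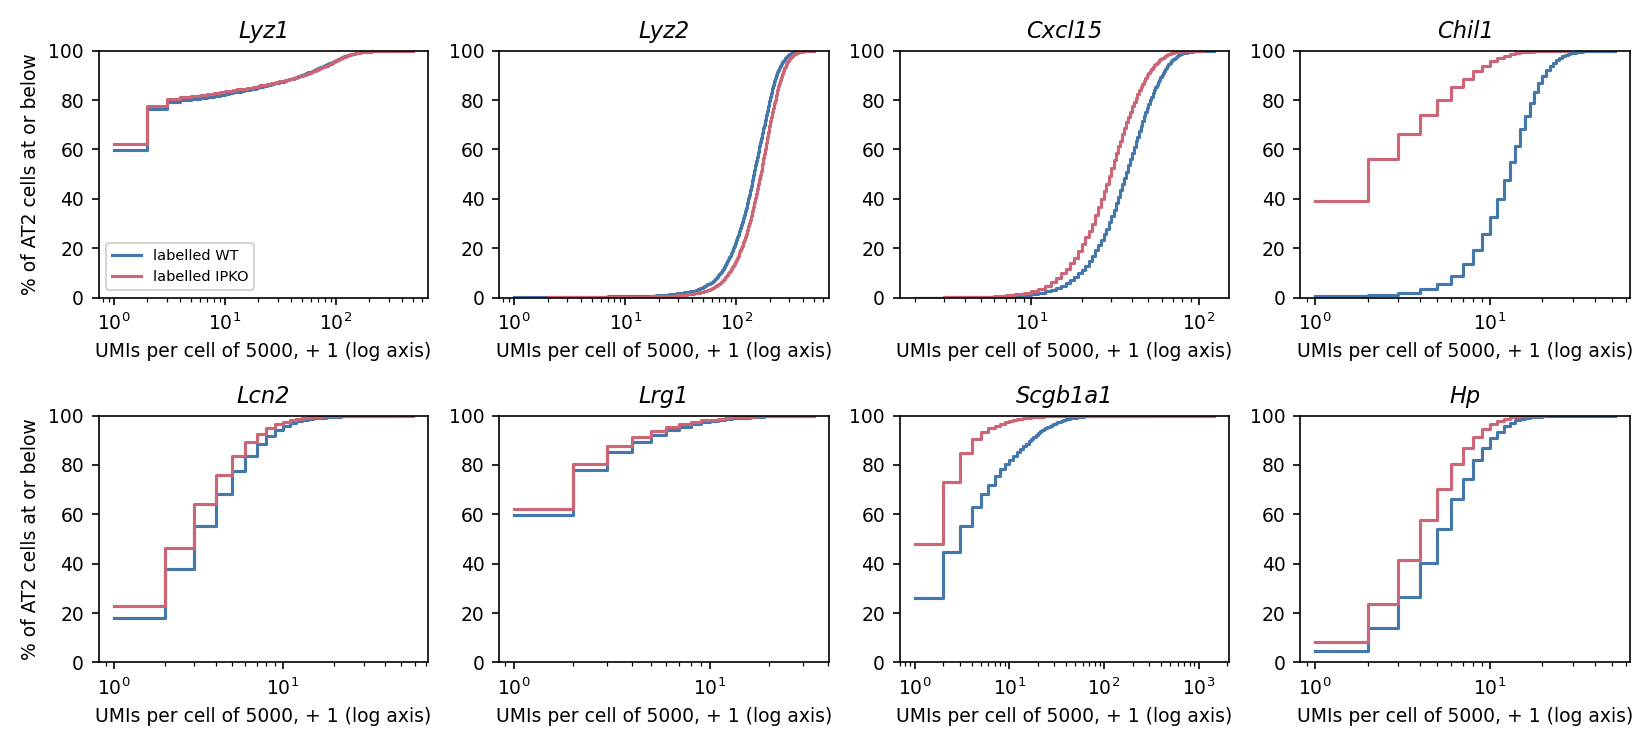
Share of AT2 cells (percent) at or below a given number of UMIs of each gene, after thinning each cell to 5000 UMIs and adding 1 (log axis), blue for the label WT and red for IPKO. Chil1 and Scgb1a1 curves lie apart between the libraries, and the Lyz1 curves have a long flat stretch between cells with few and cells with many UMIs.

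By excess variance, Lyz1 was the most unevenly spread member after Scgb1a1 labelled IPKO. Its median was 0 UMIs of 5000. Cells with Lyz1 at 0.5% of their UMIs or more, a limit set after its values were seen, made up 13.7% of AT2 cells labelled WT (881 cells, interval 12.9% to 14.6%) and 13.3% labelled IPKO (996 cells, 12.6% to 14.1%), and held 91.5% and 92.7% of all Lyz1 UMIs. Cells under 0.1% made up 80.8% and 81.8%; 350 and 366 cells lay between. In the cells under 0.1% Lyz1 stood at 70.7 and 69.8 CPM, or 1.32 and 1.22 UMIs per cell, against 0.353 and 0.310 UMIs per lymphocyte-marked cell, whose total was lower (medians of 5732 and 5176 UMIs). Near the limit, 65 and 76 cells had 0.4% to 0.5% and 54 and 63 cells had 0.5% to 0.6%.

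Where Lyz1 was high, Lyz2 was lower. Lyz2 stood at 31853 CPM in the Lyz1-low cells and 21628 CPM in the Lyz1-high cells labelled WT (log2 ratio -0.56, interval -0.56 to -0.55), and at 36534 and 24481 CPM labelled IPKO (-0.58, -0.58 to -0.57). The summed level of the 2 lysozymes was 31924 CPM in Lyz1-low and 37718 CPM in Lyz1-high cells labelled WT, and 36604 and 41022 CPM labelled IPKO. In Lyz1-high cells Lyz1 made up 42.7% and 40.3% of lysozyme UMIs. The histogram of that share over cells had its highest bin above 10% at 45% to 50% labelled WT (130 cells) and at 50% to 55% labelled IPKO (146 cells), and a small second group at 95% to 100% (22 and 13 cells). In the 41 and 26 cells with at least 80% Lyz1, Lyz2 was 2519 and 3241 CPM. Of 4217 genes of at least 20 CPM beside Lyz1, 0 were 1.5-fold higher and 0 lower in the Lyz1-high cells of both libraries (0% and 0%). Lyz2 is among the 4217 and was not called, being 1.47-fold and 1.49-fold lower. With a Lyz1 limit of 1% its log2 ratios were -0.61 and -0.66, past 1.5-fold. The other 6 members and Sftpc had log2 ratios between -0.10 and 0.20. Keratin-high cells held Lyz1-high cells at 12.2% (40 of 328) and 9.69% (38 of 392).

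**Figure D4:**
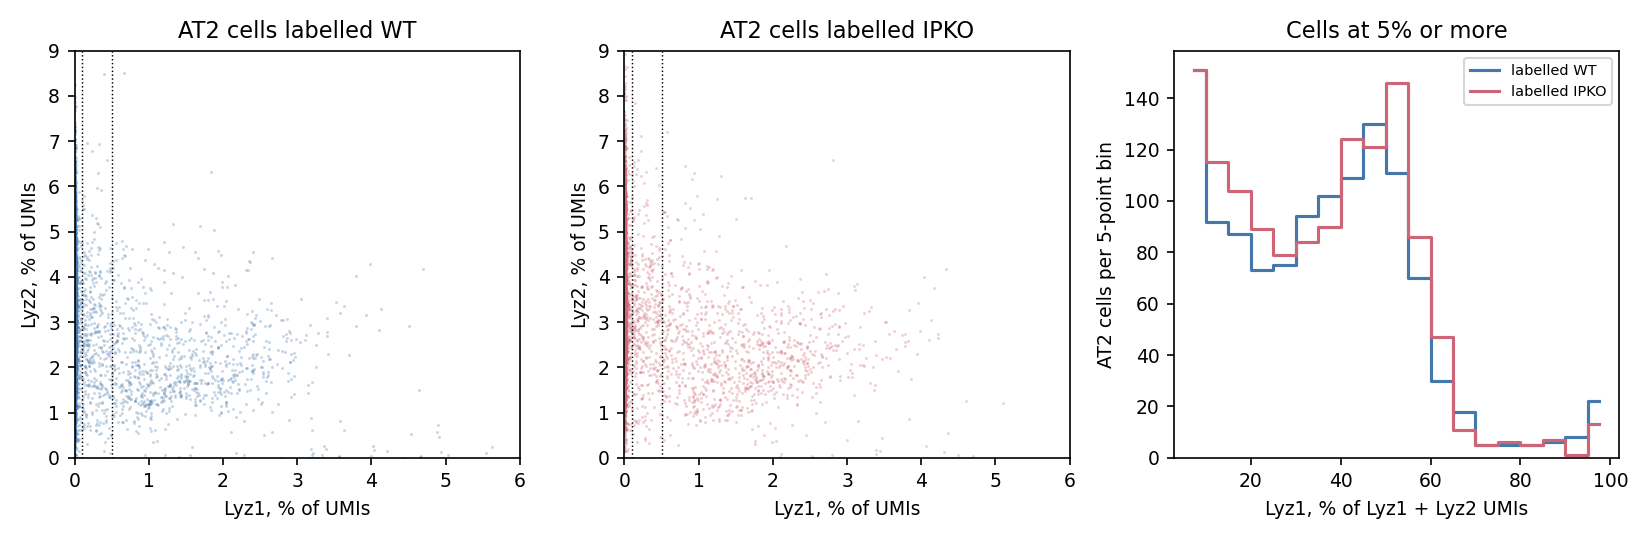
Left and middle, Lyz1 against Lyz2 in percent of UMIs, 1 point per AT2 cell of each library (dotted lines at 0.1% and 0.5% Lyz1; 6 and 8 cells lie outside the axes); right, number of AT2 cells by the share of Lyz1 in lysozyme UMIs, from 5%. Cells with much Lyz1 form a separate cloud at lower Lyz2, and the share has a second, smaller rise near 100%.

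Scgb1a1 was found in most AT2 cells of both libraries, at a lower level labelled IPKO. Before thinning, Scgb1a1 had a UMI in 92.5% of AT2 cells labelled WT and 80.2% labelled IPKO. Its median share was 389 CPM labelled WT and 127 CPM labelled IPKO. At least 0.1% of UMIs was Scgb1a1 in 29.7% of AT2 cells labelled WT (28.6% to 30.9%) and 5.57% labelled IPKO (5.06% to 6.12%), and at least 1% in 50 and 9 cells. These limits are fixed, so the shares depend on the level as well as on the spread over cells. The median labelled IPKO is below the 142 CPM of lymphocyte-marked cells there. AT2 cells hold more UMIs in all, and had a median of 2 Scgb1a1 UMIs and a mean of 6.38. Lymphocyte-marked cells had a median of 0 and a mean of 0.836, macrophage-marked cells 1 and 2.06, and endothelial-marked cells 0 and 2.66. How much of the Scgb1a1 in AT2 cells labelled IPKO was free RNA was not tested. In cells at 0.1% to 1% Scgb1a1, Cyp2f2, an enzyme gene of club cells, stood at 19.2 and 37.4 CPM. In cells under 0.1% it stood at 16.8 and 23.9 CPM. Scgb3a2, another secretoglobin gene, was at 1.89 and 6.57 CPM, against 0.746 and 2.19 CPM under 0.1%. Both were higher in the 50 and 9 cells at 1% or more, Cyp2f2 at 44.2 and 1131 CPM and Scgb3a2 at 31.9 and 184 CPM. The 9 include the cell with 6943 Scgb1a1 and 101 Cyp2f2 UMIs, described below. Pon1, also a club marker here, went the other way between the labels, at 143 and 71.1 CPM in all AT2 cells. Its r with Scgb1a1 was 0.23 and 0.08. The club marker list summed to 256 and 191 CPM in AT2 cells, with 2 of 11 markers at 0 labelled WT and 0 labelled IPKO; its part in the result was not tested.

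In keratin-high cells most members were lower than in other AT2 cells. Chil1 and Lrg1 were at least 1.5-fold lower in both libraries, and 0 members were higher; the shares of all genes called were 1.68% lower and 4.56% higher. Lrg1 stood at 280 CPM in other AT2 cells and 70.7 CPM in keratin-high cells labelled WT (log2 ratio -1.98, -2.13 to -1.84), and at 233 and 77.4 CPM labelled IPKO (-1.59, -1.72 to -1.46). Chil1 was at -0.61 and -1.08. Labelled WT these values depended on the keratin limit: with the highest 10% of cells or with Krt8 alone, Chil1 was at -0.40 and -0.54, under 1.5-fold, and Lrg1 at -1.16 and -1.10. Cxcl15 was at -0.53 and -0.55, Lcn2 at -0.43 and -0.67, Lyz2 at -0.43 and -0.40, Hp at -0.32 and -0.32 and Lyz1 at -0.25 and -0.13. Sftpc differed by -0.10 in both. In the same cells the calcium-binding protein gene S100a6 was 79.9-fold and 55.7-fold higher. Scgb1a1 stood at 356 CPM against 1237 CPM in other AT2 cells labelled WT (-1.80), but at 1278 against 316 CPM labelled IPKO (2.01). One cell held 6943 of those 8106 UMIs (85.7%): 28.5% of its UMIs were Scgb1a1 and 10.3% Sftpc, it had UMIs of 4 of the 11 club markers, with 101 UMIs of Cyp2f2, and without it the level was 184 CPM. Leaving out the highest cell of each class gave -0.74 labelled IPKO.

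Across AT2 cells, 5 of the 28 pairs of members had a correlation of at least 0.2 in both libraries, against 0.00675% of all pairs of genes of at least 20 CPM. That background was not matched for level: it reaches down to 20 CPM, while Lrg1, the lowest member, had 271 and 226 CPM. Low counts hold r near 0, and the members were chosen with earlier results of these data known. The count is therefore not support for anything about the set. The same 5 pairs, and Lyz2 with Lcn2, were found without the AT2 cells that carried 2 or more markers of another type. That setting left out most AT2 cells, 5022 of 6422 labelled WT and 5900 of 7465 labelled IPKO. Correlations are Pearson's r of log2(UMIs + 1) at 5000 UMIs per cell, over 6392 and 7380 cells of 1 library each, and are descriptions. Each pair of Lcn2, Chil1 and Lrg1 was among the 5. Their r was 0.36 and 0.30 for Chil1 with Lcn2, 0.34 and 0.33 for Lcn2 with Lrg1 and 0.22 and 0.26 for Chil1 with Lrg1. At 3000 UMIs per cell Chil1 with Lrg1 was no longer at 0.2 in both libraries. The mean r of Lrg1 with Chil1 was 0.24, below its 0.31, 0.30 and 0.27 with Scd1, Npc2 and Itih4, which are not members. Of cells with Lcn2, 44.5% labelled WT and 42.3% labelled IPKO had an Lrg1 UMI, against 21.0% and 22.4% of cells without. Cxcl15 went with Lyz2 (0.32 and 0.35) and with Lcn2 (0.26 and 0.24). Lyz1 and Lyz2 had r of -0.31 and -0.32, and Lyz1 was within 0.07 of 0 with every other member. Levels also went with depth: with AT2 cells in 4 equal groups by their UMIs, from the lowest group to the highest, Lrg1 was 136 and 392 CPM and Lcn2 453 and 798 labelled WT, and Chil1 was 364 and 622 CPM and Lcn2 363 and 671 labelled IPKO; its part in the correlations was not tested.

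**Figure D5:**
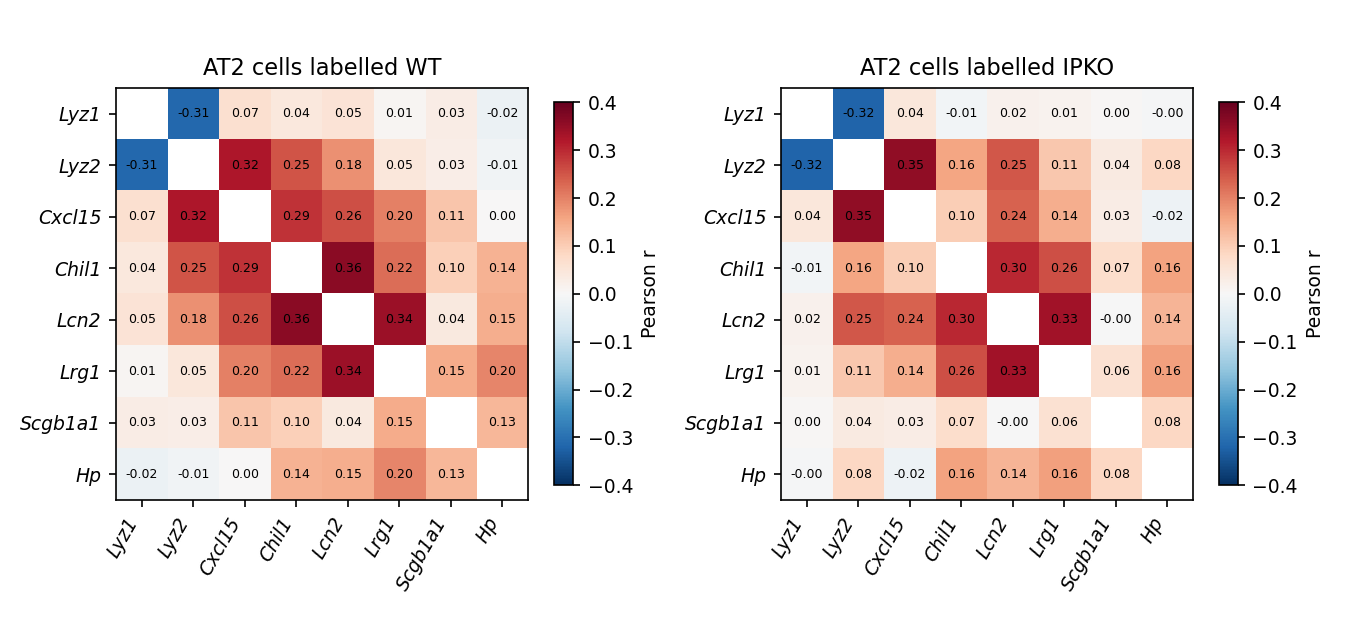
Pearson correlation of each pair of genes across AT2 cells thinned to 5000 UMIs, for the libraries labelled WT (left) and IPKO (right); colours run from blue (negative) to red (positive). The lowest pair is Lyz1 with Lyz2 (-0.31 and -0.32), and Lcn2 has r of at least 0.2 with Chil1, Lrg1 and Cxcl15 in both.

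Genes outside the set that went most with a member were few in kind. Itih4, an acute-phase inhibitor heavy chain, was among the 3 most like for Chil1, Lcn2, Lrg1 and Hp, with a mean r over both libraries of 0.20, 0.22, 0.27 and 0.17. Scd1, a fatty acid desaturase, was most like Chil1 and Lrg1 (0.24 and 0.31) and second for Lcn2, Hp and Scgb1a1. Npc2, a secreted sterol carrier, led for Hp (0.27) and Scgb1a1 (0.16). Sftpa1, surfactant protein A, led for Lyz2 (0.26) and Cxcl15 (0.23). For Lyz1 the highest was 0.06, for Bex2.

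Related genes were read from 5 lists by the same 1.5-fold rule in AT2 cells, by which 1.69% of all genes were higher and 1.51% lower labelled IPKO. Of 27 secreted antimicrobial and opsonin genes 15 were measured at 5 CPM or more, 1 higher and 2 lower labelled IPKO, with a median log2 ratio of -0.03 against 0.06 over all genes. Pglyrp1, a peptidoglycan recognition protein, stood at 1.62 and 27.0 CPM (4.06); the chitinase gene Chia1 at 264 and 145 CPM (-0.86) and the protease inhibitor gene Slpi at 53.9 and 34.0 CPM (-0.67), while Cd14 was at 0.20. Of 24 acute phase and complement genes 2 were measured, C3 at -0.59, called lower, and Itih4 at -0.24. Of 12 neutrophil-attracting chemokine and cytokine genes 1 was measured, Csf2 at -0.40. Of 27 inputs to these genes 22 were measured, 2 higher and 0 lower with a median of -0.06: Nfkbiz, a co-factor of NF-kB, at 24.95 and 48.9 CPM (0.97), and the transcription factor gene Cebpb at 52.8 and 87.3 CPM (0.72), with Elf3 at -0.48 and Stat3 at -0.45. Of 14 receptors and partners 6 were measured and none was called; Tmem219, which encodes a reported partner of the Chil1 protein, was at 0.32, Tgfbr2 at 0.15, Hmox1 at -0.15 and Lrp2, which encodes an uptake receptor, at -0.48.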

How the data were processed

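The authors deposited raw UMI counts per gene and barcode. Per the file headers and the submitters' processing notes these come from Cell Ranger 4.0.0, and per those notes from GRCm38 (mm10); the release of the annotation was not given in the sources used here. Libraries were made with the 10x Chromium 3′ kit per the labels' protocols. Only called barcodes were used here, so free RNA was read from lymphocyte-marked cells. No doublet caller was run; alternatives left out the 5% of cells with the most UMIs and AT2 cells with at least 2 markers of another type (5022 of 6422 and 5900 of 7465).

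Counts were summed per class and library and given as CPM, with exact Poisson, conditional binomial (ratios) and Clopper-Pearson (shares) 95% intervals. A difference was called from 1.5-fold. Shares, spread and correlations used cells thinned without replacement. The work used Python 3.11.15, numpy 2.4.6, pandas 2.3.3, SciPy 1.17.1 and Biopython 1.88; the calculations were tested on simulated data. The members and lists were chosen with earlier results of these data known. Named genes were the 8 members, Ptgir, Sftpc, some of the 3 genes most correlated with each member (at least 20 CPM) and the 2 highest and 2 lowest ratios of each list. Others, such as Chil3, Cyp2f2, Scgb3a2 and S100a6, were chosen after their values were seen.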

Additional observations from a re-analysis of the deposited data

Results flagged for a closer look

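Scgb1a1 had opposite directions in keratin-high against other AT2 cells in the 2 libraries, with log2 ratios of -1.80 labelled WT and 2.01 labelled IPKO; the difference was not tested, and without the highest cell of each class the value labelled IPKO was -0.74. Barcodes with over 20% mitochondrial UMIs (2055 and 1725) were left out of the main comparisons. Those with at least 500 genes entered only the alternative without a limit on the mitochondrial share. The 2055 and 1725 barcodes held all 8 members above the floor of 3 counts in both libraries. Per nuclear UMI, their levels were 0.447 to 0.579 of those in kept cells labelled WT and 0.459 to 0.688 labelled IPKO, except Scgb1a1 labelled IPKO at 2.11.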

How the results depend on the processing

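No paired analysis was possible because each label has 1 library. Under every alternative that could change a ratio, 2 members stayed at least 1.5-fold lower and 0 higher in AT2 cells labelled IPKO, with log2 ratios of -2.43 to -2.28 for Chil1 and -2.06 to -1.72 for Scgb1a1; Lyz1 was at 0.38 without AT2 cells with 2 markers of another type, against -0.01; at a limit of 1 CPM the share of all genes called was 4.64% against 3.2%. The count of members lower in keratin-high cells of both libraries was 2; it became 4 with the highest 2% of cells, 1 with the highest 10% and 1 with Krt8 alone, where Chil1 labelled WT was at -0.40 and -0.54, and 3 without the highest Scgb1a1 cell of each class, which turned that gene to -0.74 labelled IPKO. Pairs at 0.2 or more numbered 5, and 3 at 3000 UMIs per cell, where Chil1 with Lrg1 and Cxcl15 with Lcn2 dropped out. The cause was not tested. The counts for levels by class (7) and spread (4) stayed. Lyz1-high cells made up 16.0% and 15.3% with a limit of 0.3% and 9.75% and 9.97% with 1%, and Lyz2 in them stood at -0.51 and -0.53 or -0.61 and -0.66; these limits, and the alternatives by highest Scgb1a1 or Sftpc cells, were chosen after seeing the data. Non-epithelial classes of few cells are limited by counting error, and 1 library per label by the lack of replicates.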
